A study of Mus musculus with 6 samples.

Results

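Foxp1, Aldh1a2, Etv4, Etv5, Pou3f1, Cpne4, Nr2f2 and Runx1 are 8 genes linked to the motor neurons that innervate limb muscle. Every array probe whose RefSeq accession belongs to 1 of these genes was taken, which gave 14 probes among the 55681 probes of the array and 8 genes among the 19897 with a matched probe. The arrays profiled cells dissociated from mouse spinal cord of E12.5 embryos and sorted by flow cytometry on the Hb9::GFP reporter, which all embryos carried. Hb9::GFP drives green fluorescent protein from regulatory sequence of Mnx1 (Hb9), a gene of postmitotic motor neurons. The 4 groups were motor neurons (GFP-on) labelled mir-17~92 -/- on 2 arrays, motor neurons labelled wild type (WT) on 2 arrays, non-motor neurons (GFP-off) labelled mir-17~92 -/- on 1 array and non-motor neurons labelled WT on 1 array. The GFP-off fraction is a mix of the cord's cells sorted as lacking GFP, and how pure either fraction was is not given. The labels do not say whether embryos were pooled, or whether the 2 arrays of a group came from separate embryos, so p-values measure the spread between these arrays, which may be technical.

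Spinal motor neurons are grouped into columns that project to different muscles. The lateral motor column forms at limb levels, where Hox proteins and their cofactor Foxp1 set its identity. Its neurons make retinoic acid through Aldh1a2, and within the column the ETS, POU and Runt factors mark pools that supply single muscles. The mir-17~92 cluster encodes microRNAs that repress many transcripts, and loss of the cluster is known to affect the survival of limb-innervating motor neurons.

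The knockout label refers to the following mature microRNAs, shown because they are what the labelled deletion removes. The sequences are from RefSeq (GRCm38.p6), 5′ to 3′, with the seed (bases 2 to 8) in capitals. The 6 microRNAs carry 4 seeds, and miR-17-5p and miR-20a-5p share one, as do miR-19a-3p and miR-19b-3p.
mmu-miR-17-5p: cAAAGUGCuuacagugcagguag
mmu-miR-20a-5p: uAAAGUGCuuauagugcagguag
mmu-miR-18a-5p: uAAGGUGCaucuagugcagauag
mmu-miR-19a-3p: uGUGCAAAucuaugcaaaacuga
mmu-miR-19b-3p: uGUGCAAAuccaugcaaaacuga
mmu-miR-92a-3p: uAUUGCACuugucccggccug

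Values below are log2 signals relative to the 75th percentile of each array's probes, so a value of 0 is that percentile, and levels of different probes are not compared. The array's 75th percentile signal lay between 48.5 and 64.5 intensity units on 3 of the motor neuron arrays and between 340.5 and 549.9 on the other motor neuron array, labelled knockout replicate 2, and the non-motor-neuron arrays. The share of spots well above background was 41.0% to 44.0% on the dimmer arrays and 58.9% to 62.3% on the brighter ones. Mir17hg, the host transcript of the cluster, went against the labels. Its probe had 4.55, 4.78 and 4.62 on the 3 knockout-labelled arrays, against -2.38 (not well above background), 2.73 and -1.23 on the WT-labelled arrays. Where this probe lies relative to the deletion is not given in the sources used here, so genotype is written below as labelled. Mnx1 itself had no matched probe. Of 6 other motor neuron markers, 2 were called higher in motor neurons than in non-motor neurons. Isl1 (0.81), Isl2 (1.58), Slc5a7 (0.82) and Prph (2.12) were not called (limma, adjusted p = 0.178 to 0.405). Chat and Slc18a3, cholinergic genes of motor neurons, were higher by 3.17 and 3.48 log2 (limma, adjusted p = 0.0330 and 0.0274). Their differences were 2.98 and 3.67 without the WT-labelled motor neuron replicate 2 (adjusted p = 0.0881 for both). That array stood apart from the other groups: its correlation across 10134 genes was 0.710 to 0.798 with the knockout-labelled and non-motor-neuron arrays, against 0.926 with its own replicate. Called member results, and called genes of the other lists that lose their call without it, are given with and without it.

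Of the 14 probes, 12 were well above background on at least 2 arrays and were tested, out of 33263 tested probes. The brightest probes of 7 genes, all but Runx1, were well above background on every array, in motor neurons and in non-motor neurons of either label.

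**Figure D1:**
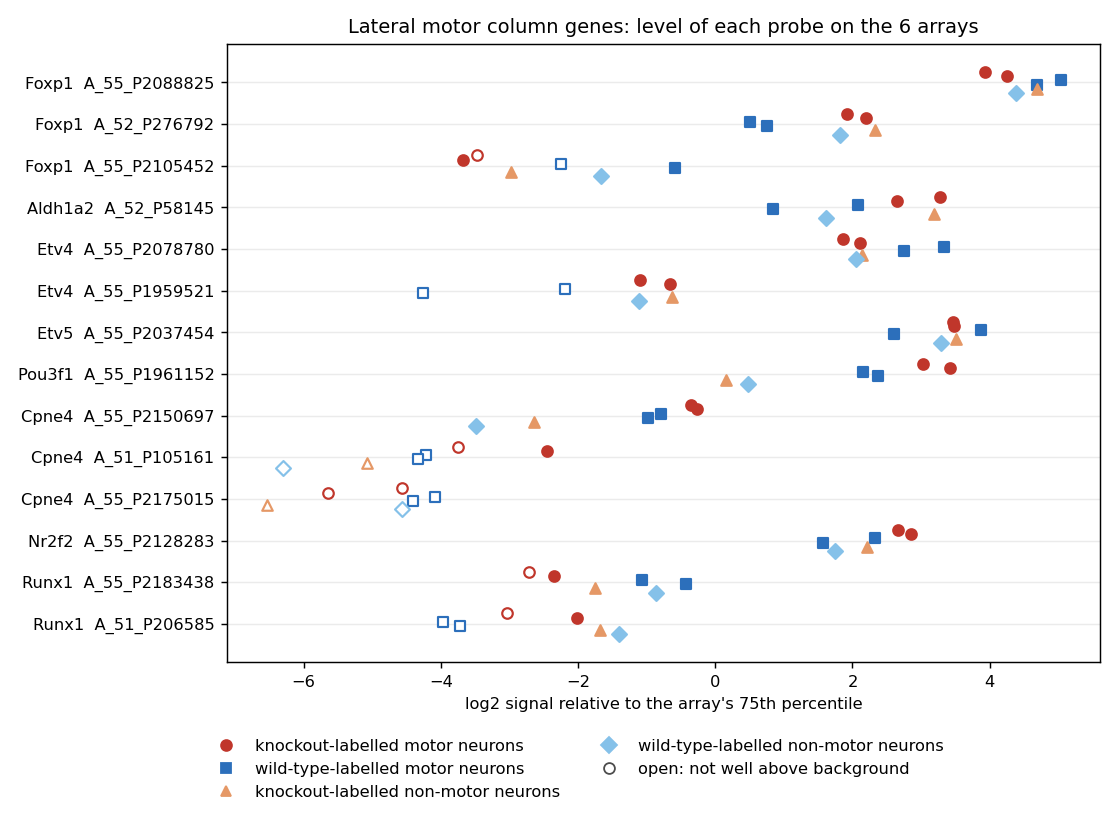
Log2 signal relative to the array's 75th percentile (horizontal axis) of each of the 14 probes (rows) on the 6 arrays, by group, with open points where the probe was not well above background. Pou3f1 and the brightest Cpne4 probe lie further right on all 4 motor neuron arrays than on both non-motor-neuron arrays, while probes of Foxp1, Etv4 and Runx1 differ between genotype labels in opposite directions.

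Motor neurons were first compared with non-motor neurons, which asks which of these genes the GFP-on fraction held at higher level. Cpne4, a copine that binds membranes in response to calcium, was higher in motor neurons. Its brightest probe, A_55_P2150697, had -0.35 and -0.27 in knockout-labelled motor neurons and -0.79 and -0.99 in WT-labelled motor neurons, against -2.64 and -3.49 in the knockout-labelled and WT-labelled non-motor neurons. All 4 motor neuron arrays lay above both non-motor-neuron arrays. The difference was 2.47 ± 0.44 log2 (SE, 4 arrays against 2), a 5.53-fold ratio, with an adjusted p of 0.0405 in limma's test over all probes. Cpne4 was the only one of the 12 tested probes called in this comparison, where 0.854% of all tested probes were called in either direction, 0.649% higher and 0.204% lower. The adjusted p was 0.0942 without the WT-labelled motor neuron replicate 2, with a difference of 2.49. The call was also lost without WT-labelled replicate 1 (adjusted p = 0.175), without knockout-labelled motor neuron replicate 1 (0.0980), and without the knockout-labelled (0.0591) or the WT-labelled (0.299) non-motor-neuron array. The adjusted p ran from 0.00786 to 0.299 over 18 alternatives, and 8 of them kept the call. Within the knockout label the difference was 2.33 and within the WT label 2.61, so it was of like size in both.

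The other Cpne4 probes were dim. Probe A_51_P105161, printed on 10 spots per array, had -3.75 and -2.46 in knockout-labelled motor neurons and -4.22 and -4.34 in WT-labelled motor neurons, against -5.08 and -6.30 in knockout-labelled and WT-labelled non-motor neurons. Only the brighter knockout-labelled motor neuron array was well above background, with 10 of 10 spots, so the probe was not tested. Values below background have no order, and nothing is read from them. Probe A_55_P2175015 was not well above background on any array.

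Pou3f1, the POU factor also called SCIP or Oct6 that marks brachial motor pools and Schwann cell precursors, had nearly the same difference. It had 3.03 and 3.42 in knockout-labelled motor neurons and 2.16 and 2.37 in WT-labelled motor neurons, against 0.15 and 0.48 in the knockout-labelled and WT-labelled non-motor neurons. No motor neuron array overlapped a non-motor-neuron array. The difference was 2.43 ± 0.49 log2, or 5.38-fold, but the adjusted p of 0.0549 missed the threshold of 0.05. It passed in 6 of 18 alternatives, among them a fit with 1 probe per gene (adjusted p = 0.0371). Within the knockout label the difference was 3.07 and within the WT label 1.78.

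Beside these differences, the summed signal of 6 motor neuron markers, in units of the array's 75th percentile, was 5.56 to 35.3 on motor neuron arrays and 2.95 to 4.86 on non-motor-neuron arrays. By label these were 30.9 and 35.3 in knockout-labelled motor neurons, against 8.22 and 5.56 in WT-labelled motor neurons. Of these markers, Prph had log2 signals of 3.97 and 4.04 under the knockout label, against 0.11 and -0.99. Chat and Slc18a3 were not called between labels in motor neurons, at -0.34 and 0.47 (limma, adjusted p = 0.662 and 0.538). Markers of other cells differed between fractions too. The 5 measured sensory neuron and neural crest markers summed to 30.5 to 57.0 on motor neuron arrays and 6.10 to 6.88 on non-motor-neuron arrays, with 3 to 5 of 5 and 5 of 5 markers well above background. The 5 interneuron markers summed to 3.39 to 6.73 on motor neuron arrays and 1.07 to 1.18 on non-motor-neuron arrays, and the 6 red cell markers to 40.2 to 229 and 540 to 628, with 4 of the 6 called lower in motor neurons. The part of these markers in the Pou3f1 and Cpne4 differences was not tested. In sorted bulk samples, fewer cells of a type and less RNA per cell cannot be told apart.

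The promoters of Cpne4, the member called here, are shown with the Foxp1 promoter that holds TAATTA, the core sequence many homeodomain proteins bind. They are from RefSeq (GRCm38.p6), 250 bases before to 50 after an annotated start. Among 11 promoters of 6 members, 1 held TAATTA, which reads the same on both strands, against 5.29% of 32851 promoters of the same length. Neither Cpne4 promoter held it, and in the Foxp1 promoter it is in capitals.
Cpne4, chr9:104569405-104569704, + strand: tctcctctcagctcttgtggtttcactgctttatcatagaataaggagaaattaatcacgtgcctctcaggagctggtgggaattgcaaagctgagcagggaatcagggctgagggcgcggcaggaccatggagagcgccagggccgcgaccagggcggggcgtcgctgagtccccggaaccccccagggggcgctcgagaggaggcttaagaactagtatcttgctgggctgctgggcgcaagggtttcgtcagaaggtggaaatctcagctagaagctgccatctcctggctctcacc
Cpne4, chr9:104587808-104588107, + strand: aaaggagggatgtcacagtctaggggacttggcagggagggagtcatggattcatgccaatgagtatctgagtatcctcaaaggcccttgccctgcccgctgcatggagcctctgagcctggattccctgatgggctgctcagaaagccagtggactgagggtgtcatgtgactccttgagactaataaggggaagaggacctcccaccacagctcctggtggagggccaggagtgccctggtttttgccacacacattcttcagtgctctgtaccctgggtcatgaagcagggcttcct
Foxp1, chr6:99266466-99266765, - strand: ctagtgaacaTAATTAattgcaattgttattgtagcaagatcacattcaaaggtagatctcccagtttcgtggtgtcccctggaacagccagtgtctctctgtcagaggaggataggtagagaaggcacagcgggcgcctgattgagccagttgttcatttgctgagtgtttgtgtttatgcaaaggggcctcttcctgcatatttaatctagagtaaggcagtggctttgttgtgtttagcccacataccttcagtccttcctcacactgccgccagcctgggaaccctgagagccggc

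The genes that define the column itself did not differ detectably between the sorted fractions. Foxp1, the Hox cofactor, had 3.93, 4.26, 5.04 and 4.69 on the motor neuron arrays with its brightest probe A_55_P2088825, against 4.69 and 4.39 on the non-motor-neuron arrays. The difference was -0.06 ± 0.48 log2 (adjusted p = 0.958). Aldh1a2, the retinaldehyde dehydrogenase that makes retinoic acid, had 3.27, 2.65, 2.08 and 0.84 on the motor neuron arrays, against 3.19 and 1.61 on the non-motor-neuron arrays. Both genes overlapped between fractions, and Aldh1a2 differed by -0.19 ± 0.51 log2 (adjusted p = 0.863). Meninges are a known site of Aldh1a2, and 9 meningeal and mesenchymal markers summed to 312 to 491 on motor neuron arrays and 681 to 953 on non-motor-neuron arrays. At least 8 of these 9 markers were well above background on every array, and their part in the Aldh1a2 level was not tested.

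Nr2f2 (COUP-TFII), an orphan nuclear receptor also found in veins and mesenchyme, had 2.66, 2.86, 2.33 and 1.57 on the motor neuron arrays, against 2.22 and 1.75 on the non-motor-neuron arrays. Etv5, an ETS factor of the PEA3 group that responds to FGF signals, had 3.47, 3.48, 3.88 and 2.60 on the motor neuron arrays, against 3.51 and 3.28 on the non-motor-neuron arrays. Each gene's 2 fractions overlapped, with differences of 0.37 ± 0.47 for Nr2f2 and -0.04 ± 0.50 for Etv5. Runx1, a Runt factor of some cervical motor neurons, of nociceptors and of blood cells, had a probe (A_51_P206585) that was lower on all 4 motor neuron arrays than on both non-motor-neuron arrays. That probe had -3.04, -2.02, -3.97 and -3.72 on the motor neuron arrays, only the -2.02 of them well above background, against -1.68 and -1.40 on the non-motor-neuron arrays. Its difference of -1.65 ± 0.54 log2 was not called (adjusted p = 0.161). The other Runx1 probe, A_55_P2183438, had -1.75 and -0.87 in the knockout-labelled and WT-labelled non-motor neurons, inside its range on the motor neuron arrays, and differed by -0.34 ± 0.48.

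The remaining probes of Foxp1 and Etv4 were not called between fractions either. On the knockout-labelled and WT-labelled non-motor-neuron arrays, Foxp1 probe A_52_P276792 had 2.33 and 1.82, and A_55_P2105452 had -2.97 and -1.67. Their differences between motor neurons and non-motor neurons were -0.73 ± 0.47 and -0.18 ± 0.56 log2. Etv4 probe A_55_P2078780 had 2.14 and 2.05 in non-motor neurons, and A_55_P1959521 had -0.63 and -1.11. The brighter Etv4 probe differed by 0.42 ± 0.49 log2 and the dimmer one by -1.18 ± 0.67 (adjusted p = 0.657 and 0.355). For the dimmer probe the knockout-labelled motor neuron arrays lay near the non-motor-neuron arrays, while the WT-labelled motor neuron arrays lay below them and below background. In all, 2 of the 12 probes had motor neuron arrays wholly above and 1 wholly below the non-motor-neuron arrays, 3 of 12 where 24.3% of all tested probes had no overlap (9.42% wholly above and 14.8% wholly below).

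**Figure D2:**
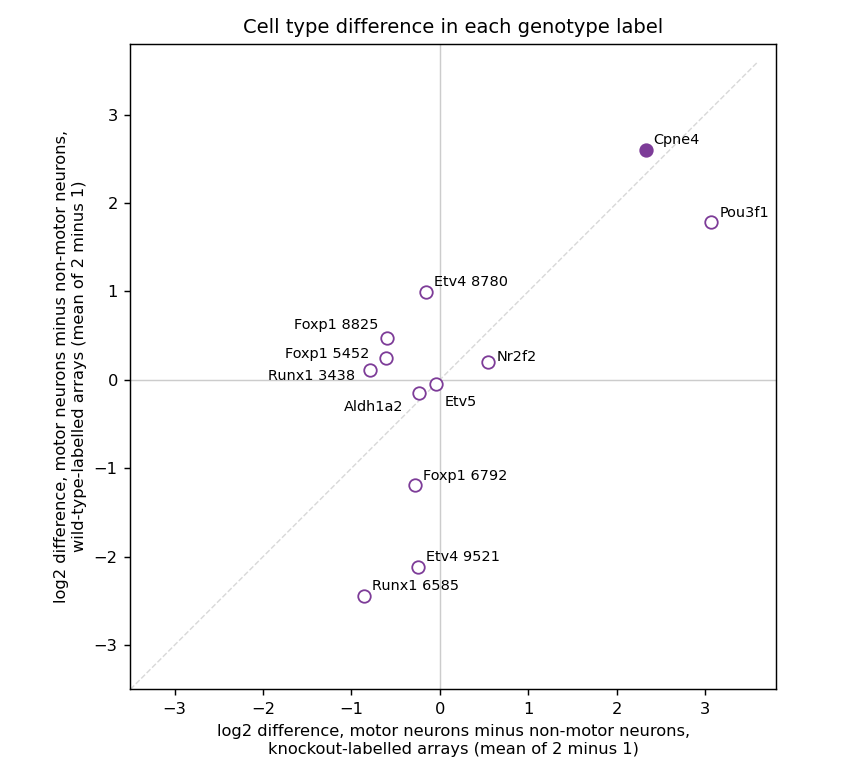
Log2 difference of motor neurons minus non-motor neurons within the knockout-labelled arrays (horizontal axis) and within the WT-labelled arrays (vertical axis) for the 12 tested probes, with the last 4 digits of the probe where a gene has several. Filled marks a call in the additive fit, Cpne4; Cpne4 and Pou3f1 lie far to the upper right, with 2.33 and 3.07 within the knockout label and 2.61 and 1.78 within the WT label.

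Next, motor neurons labelled knockout were compared with those labelled WT, which asks what differs with the mir-17~92 label. Calls were made for 3 of the 12 probes, 1 higher and 2 lower, 25% of the probes where 24.8% of all tested probes were called (10.6% higher and 14.2% lower). The members' share was thus that of the array as a whole. The members' calls moved with the scaling: after subtracting each array's median 4 probes were called higher and 0 lower, with the Foxp1 and Runx1 calls lost (adjusted p = 0.0703 and 0.176). After quantile normalization none of the 3 calls was made. After normexp with quantile normalization none of the 3 was made either, while 2 other member probes were called, where 6155 of all 33263 tested probes were. Those 2 were Foxp1 A_52_P276792 at 1.07 (adjusted p = 0.0417) and Etv4 A_55_P2078780 at -1.12 (adjusted p = 0.0339). The split of all calls moved with the scaling. It was 3524 higher and 4734 lower as reported, 7281 and 2569 after subtracting each array's median, and 1578 and 392 after quantile normalization. The median difference over all tested probes was -0.20, and 0.44 with array medians subtracted. Groups did not overlap for 7 probes that were higher and 4 that were lower, 11 of 12 where 69.5% of all tested probes had no overlap (29.8% higher and 39.7% lower). The knockout-labelled motor neuron arrays were in row 1 of the slide and the other 4 arrays in row 2, so slide row and label cannot be told apart in motor neurons. Some cell type markers differed with the label as well. Of 6 motor neuron markers, 4 were called higher under the knockout label. The 4 tested progenitor markers summed to 40.0 and 43.8 in knockout-labelled motor neurons, against 9.52 and 5.98 in WT-labelled motor neurons. Fabp7, the brightest of them, had log2 signals of 5.21 and 5.36 against 2.66 and 1.95. Fabp7 and Sox2 were called higher, while Nkx6-1 (-0.33) and Pax6 (-0.63) had the other sign and were not called. The part of these markers in the members' differences was not tested.

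Etv4 (PEA3), the ETS factor induced in motor pools by signals from the limb, gave opposite answers with its 2 probes. Probe A_55_P1959521 had -1.09 and -0.66 in knockout-labelled motor neurons, against -2.19 and -4.26 in WT-labelled motor neurons, where it was not well above background on either array. It rose by 2.35 ± 0.70 log2 on the fitted scale (adjusted p = 0.0403), at least 2.51-fold against the lowest signal well above background. The brighter probe A_55_P2078780 had 1.86 and 2.10 in knockout-labelled motor neurons, against 3.34 and 2.75 in WT-labelled motor neurons. It differed the other way, by -1.06 ± 0.53 log2, and was not called (adjusted p = 0.157). Without the WT-labelled replicate 2 the dimmer probe differed by 1.32 (adjusted p = 0.141).

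Foxp1 had 3 probes, and they did not move together. Probe A_55_P2105452, matched to transcript NM_001197321, had -3.47 and -3.68 in knockout-labelled motor neurons, against -2.25 and -0.58 in WT-labelled motor neurons. It was well above background on 1 array of each group and fell by 2.16 ± 0.64 log2 (adjusted p = 0.0389), with -1.32 (adjusted p = 0.132) when the WT-labelled replicate 2 was left out. Probe A_52_P276792 had 1.92 and 2.20 in knockout-labelled motor neurons, against 0.51 and 0.76 in WT-labelled motor neurons. Those groups did not overlap, but the difference of 1.42 ± 0.51 log2 missed the threshold (adjusted p = 0.0683). The brightest probe A_55_P2088825 had 3.93 and 4.26 in knockout-labelled motor neurons, against 5.04 and 4.69 in WT-labelled motor neurons, a difference of -0.77 ± 0.52 log2 (adjusted p = 0.286). For Foxp1, then, the sign of the difference depended on the probe.

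Runx1 showed the same kind of split. Probe A_55_P2183438, matched to NM_001111022, had -2.72 (not well above background) and -2.35 in knockout-labelled motor neurons, against -1.07 and -0.43 in WT-labelled motor neurons. It fell by 1.78 ± 0.53 log2 (adjusted p = 0.0400), with -1.47 (adjusted p = 0.111) without the WT-labelled replicate 2. Probe A_51_P206585, matched to NM_009821, had -3.04 and -2.02 in knockout-labelled motor neurons, against -3.97 and -3.72 in WT-labelled motor neurons. Only 1 of these 4 arrays was well above background for it, and its difference of 1.31 ± 0.56 log2 was not called (adjusted p = 0.110). Runx1 is also a gene of blood cells. The 8 tested macrophage and blood cell markers summed to 23.0 and 25.5 in knockout-labelled motor neurons, against 7.16 and 11.7 in WT-labelled motor neurons. Of these 8 markers, 7 and 8 were well above background under the knockout label, against 4 and 4. Their part in the Runx1 values was not tested.

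All 3 calls were also lost without knockout-labelled replicate 2, with adjusted p of 0.137 for Etv4, 0.155 for Foxp1 and 0.175 for Runx1. Without knockout-labelled replicate 1 the calls of Foxp1 (adjusted p = 0.0655) and Runx1 (adjusted p = 0.209) were lost. The genes with 1 tested probe were not called. Aldh1a2 was 1.50 ± 0.60 log2 higher in the knockout-labelled motor neurons (adjusted p = 0.0913), with 3.27 and 2.65 against 2.08 and 0.84 in WT-labelled motor neurons. Without the WT-labelled replicate 2 the Aldh1a2 difference was 0.88. Pou3f1 differed by 0.96 ± 0.52 (adjusted p = 0.187), Nr2f2 by 0.81 ± 0.54 (adjusted p = 0.281) and Cpne4 by 0.57 ± 0.51 (adjusted p = 0.421), each with the knockout-labelled arrays above the WT-labelled ones. Etv5 overlapped between labels and differed by 0.23 ± 0.59 (adjusted p = 0.789). For 1 probe alone, an exact two-sided permutation test over 4 arrays gives a p of 0.333 at best, and the calls rest on the spread limma shares across probes.

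**Figure D3:**
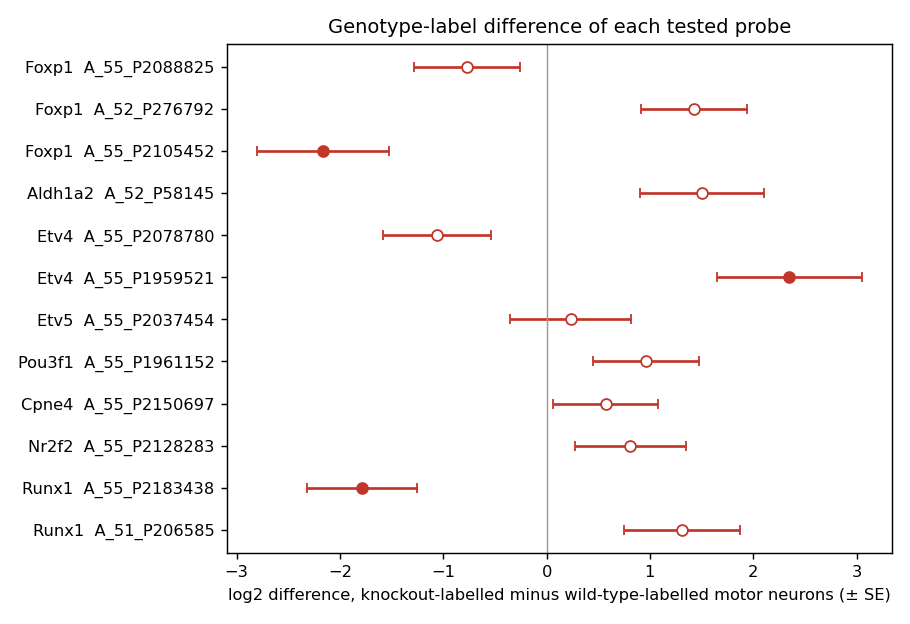
Log2 difference of knockout-labelled minus WT-labelled motor neurons (horizontal axis, points with SE bars, 2 arrays against 2) for the 12 tested probes, filled where adjusted p was under 0.05. The filled points are 1 Etv4 probe at 2.35, 1 Foxp1 probe at -2.16 and 1 Runx1 probe at -1.78, and each of these genes has another probe on the opposite side of 0.

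The distance between 2 probes of a gene on the same array is unchanged when a whole array is shifted on the log2 scale, so it was tested directly. Quantile normalization and normexp are not such shifts and can change it. Over the alternatives run, the difference in distance between labels ran from -4.21 to -2.10 for Etv4 and from -3.47 to -1.23 for Runx1. For Etv4, the brighter probe exceeded the other by 2.95 and 2.76 log2 in knockout-labelled motor neurons, by 5.53 and 7.01 in WT-labelled motor neurons, and by 2.77 and 3.16 in knockout-labelled and WT-labelled non-motor neurons. The distance was thus wide on the 2 WT-labelled motor neuron arrays and narrow on the other 4. On those 2 arrays the dimmer probe was not well above background, so their distances depend on signal under background. The fitted difference between labels was -3.41 ± 0.65 log2 and was not called (limma, unadjusted p = 0.00545, adjusted p = 0.0655).

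Foxp1 probes A_55_P2088825 and A_52_P276792, both well above background on all 6 arrays, stood 2.01 and 2.06 log2 apart in knockout-labelled motor neurons, against 4.53 and 3.93 in WT-labelled motor neurons. In knockout-labelled and WT-labelled non-motor neurons they stood 2.36 and 2.56 apart. The difference between labels was -2.20 ± 0.44 (adjusted p = 0.0672). For Runx1 the distance was 0.32 and -0.33 in knockout-labelled motor neurons, against 2.89 and 3.28 in WT-labelled motor neurons, with -0.07 and 0.53 in the non-motor neurons. The fitted Runx1 difference was -3.10 ± 0.47 (adjusted p = 0.0606). It rests on signal under background, since A_51_P206585 was not well above background on either WT-labelled motor neuron array, and neither Runx1 probe was on knockout-labelled replicate 1. Foxp1 probe A_55_P2105452, the third, did not follow, and was itself below background on 1 array of each label: its distance from the brightest probe was 7.40 and 7.94 in knockout-labelled motor neurons, against 7.29 and 5.27 in WT-labelled motor neurons (difference 1.39 ± 0.82, adjusted p = 0.288).

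No pair was called, of the members' 4 or of all 4684 pairs (0.0%), although 3 of the 4 and 1673 of all pairs (35.7%) had an unadjusted p under 0.05. Without the WT-labelled replicate 2 the same 3 pairs of Etv4, Foxp1 and Runx1 were called, with adjusted p of 0.0471, 0.0471 and 0.0484, and 558 of all pairs were. Across the array, 47.1% of pairs gave genotype-label differences of opposite sign and 30.8% differed by over 2 log2 between their probes. Between motor neurons and non-motor neurons 33.0% of pairs had opposite signs and 3.59% were that far apart. No pair was called there by limma, of the members' 4 or of all, while 322 of all pairs (6.87%) and 0 of the members' had an unadjusted p under 0.05. What sets the distance was not tested.

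**Figure D4:**
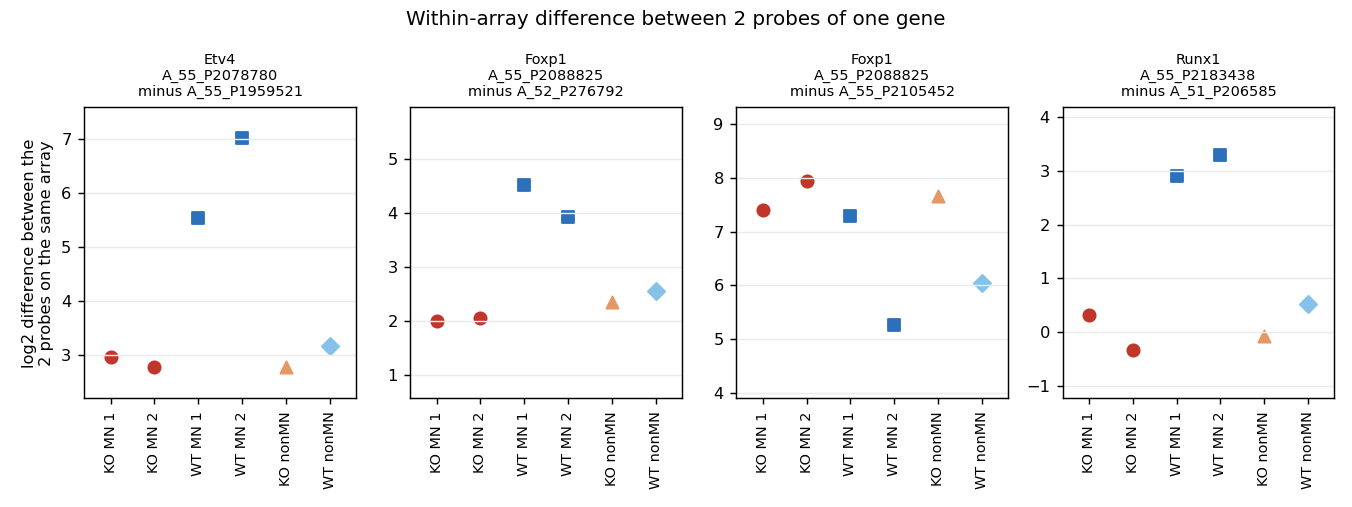
Log2 distance between 2 probes of one gene on the same array (vertical axis) for the 4 pairs of Etv4, Foxp1 and Runx1 on each of the 6 arrays (horizontal axis). For Etv4, the first Foxp1 pair and Runx1, both WT-labelled motor neuron arrays stand above the other 4 arrays; for Etv4 they reach 5.53 and 7.01 against at most 3.16, with the dimmer Etv4 and Runx1 probes below background there.

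In non-motor neurons each label had 1 array, so the values carry no test. Aldh1a2 was 1.58 log2 higher on the knockout-labelled array. In motor neurons it was 1.50 higher, and 0.88 without the WT-labelled replicate 2. Cpne4 was higher by 0.85, Nr2f2 by 0.47 and Etv5 by 0.23, and Pou3f1 was lower, with -0.33. Foxp1 probe A_52_P276792 differed by 0.51, A_55_P2088825 by 0.30 and A_55_P2105452 by -1.30. Both Etv4 probes were higher, by 0.09 and 0.48, and both Runx1 probes were lower, by -0.28 and -0.88. The 2 probes of Etv4, and those of Runx1, thus had the same sign here, where in motor neurons they had opposite signs. A test of whether the label difference itself differed between motor neurons and non-motor neurons called none of the 12 probes, with a lowest adjusted p of 0.661. The limma interaction called none of all 33263 probes either (0.0%), while 2807 (8.44%) had an unadjusted p under 0.05, 0 of them members.

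Other genes of these pathways were counted by their brightest probe, with calls taken from the fit over all probes. By that measure 21.6% of 14917 genes were called between labels in motor neurons (15.0% higher and 6.57% lower) and 1.11% between fractions (0.791% higher and 0.315% lower), with medians of 0.34 and -0.21 log2. Of the 13 genes named from the other lists as called between labels, 6 lost their call without the WT-labelled motor neuron replicate 2, 9 without knockout-labelled replicate 2, 8 with quantile normalization, and all 13 in the additive model or with no filter on dim probes. All 4 named as called between fractions lost it when either WT-labelled motor neuron array or the WT-labelled non-motor-neuron array was left out, with quantile normalization or with no filter. The 8 members had 1 called lower between labels (median 0.40) and 1 called higher between fractions (median 0.16).

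Close relatives of the members, the other Foxp, Aldh1a, Etv, Pou3f, Cpne, Nr2f and Runx genes listed, had 18 of 20 genes tested. Between labels, 0 were called higher and 3 lower, with a median of -0.60. Runx2, a Runt factor best known from bone, fell by 3.87 on the fitted log2 scale in knockout-labelled motor neurons (adjusted p = 0.0207), with neither knockout-labelled array and 1 of the 2 WT-labelled arrays well above background. Pou3f3 differed by -2.31 (adjusted p = 0.0347) and Runx3, a factor of proprioceptive sensory neurons, by -1.87 (adjusted p = 0.0464). Without the WT-labelled replicate 2, Pou3f3 (-1.41, adjusted p = 0.116) and Runx3 (-1.49, adjusted p = 0.148) were not called. A dimmer Runx3 probe, A_55_P2130895, was called in the opposite direction, at 2.02 (adjusted p = 0.0274). Between fractions none was called, at a median of 0.19, and the nearest were Pou3f2 at 2.02 (adjusted p = 0.0988) and the copine Cpne6 at 1.86 (adjusted p = 0.0906).

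Genes of motor columns, pools and axon guidance had 29 of 30 tested, and 5 were called higher and 4 lower between labels (median 0.47). Nrp1, a semaphorin receptor, was at least 5.68-fold higher in knockout-labelled motor neurons (adjusted p = 0.00772), Ctnnb1, the adhesion and Wnt protein beta-catenin, rose by 3.33 (adjusted p = 0.0103) and Isl1, the LIM factor of medial lateral motor column neurons, rose by 2.57 (adjusted p = 0.0141). Between fractions only Reln was called, at 3.87 (adjusted p = 0.0385), and at 3.33 without the WT-labelled replicate 2 (adjusted p = 0.0935), with a list median of 0.76. Reln encodes the secreted guidance protein reelin. Isl1 itself was not called between fractions (0.81, adjusted p = 0.405).

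In the retinoid pathway, to which Aldh1a2 belongs, 16 of 17 genes were tested. Crabp1, which binds retinoic acid in the cytoplasm, rose by 2.60 log2 under the knockout label (adjusted p = 0.0145), and Rdh10, which makes the substrate of Aldh1a2, was at least 1.63-fold higher (adjusted p = 0.0221). None was called lower, and the list's median was 0.11. Without the WT-labelled replicate 2, Rdh10 was not called (1.91, adjusted p = 0.0685). Between fractions Cyp26a1, which degrades retinoic acid, was lower in motor neurons, at -2.43 on the fitted scale (adjusted p = 0.0483), and the median was -0.59. Cyp26a1 was well above background on 1 of the 4 motor neuron arrays and both non-motor-neuron arrays, and its adjusted p was 0.0987 without the WT-labelled replicate 2 (-2.45).

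All 21 Hox genes and cofactors, the partners of Foxp1, were tested. Hoxa5 rose by 1.81 (adjusted p = 0.0347) and Pbx3 by 1.72 (adjusted p = 0.0422) under the knockout label, with a list median of 0.58 and no gene called lower. Neither was called without the WT-labelled replicate 2 (1.97, adjusted p = 0.0566, and 1.42, adjusted p = 0.113). None was called between fractions, where the median was 0.51. Hoxc11 came nearest at 2.57 (adjusted p = 0.0511), followed by Hoxd10, a lumbar Hox gene, at 1.80 (adjusted p = 0.138).

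Genes of the other motor columns had 8 of 9 tested. Lhx4 and Lhx3, LIM factors of the medial motor column, were higher in motor neurons than in non-motor neurons by 3.88 and 2.78 (adjusted p = 0.0145 and 0.0469), where the list's median was -0.14. Without the WT-labelled replicate 2 these were 3.898 and 3.02 (adjusted p = 0.0881 and 0.0933). Under the knockout label 3 genes were called higher, among them Ebf2, which rose by 3.35 (adjusted p = 0.00920), and Smad1, which rose by 2.31 on the fitted scale (adjusted p = 0.0395). Only 1 of the 4 motor neuron arrays was well above background for that Smad1 probe, and without the WT-labelled replicate 2 its difference was 2.22 (adjusted p = 0.116). The list's median was 0.98 and none was called lower, with Mecom nearest at -2.83 on the fitted scale (adjusted p = 0.0510). Another Smad1 probe, A_55_P2029285, was called the other way, at -2.22 (adjusted p = 0.0211). FGF signalling genes, upstream and downstream of the ETS factors, had 12 of 12 tested and 0 called in either comparison. Their largest label differences were Il17rd at 1.49 (adjusted p = 0.163) and Spry1 at 1.38 (adjusted p = 0.170). Between fractions they had a median of -0.61, with Fgf10 at -2.22 (adjusted p = 0.0566).

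**Figure D5:**
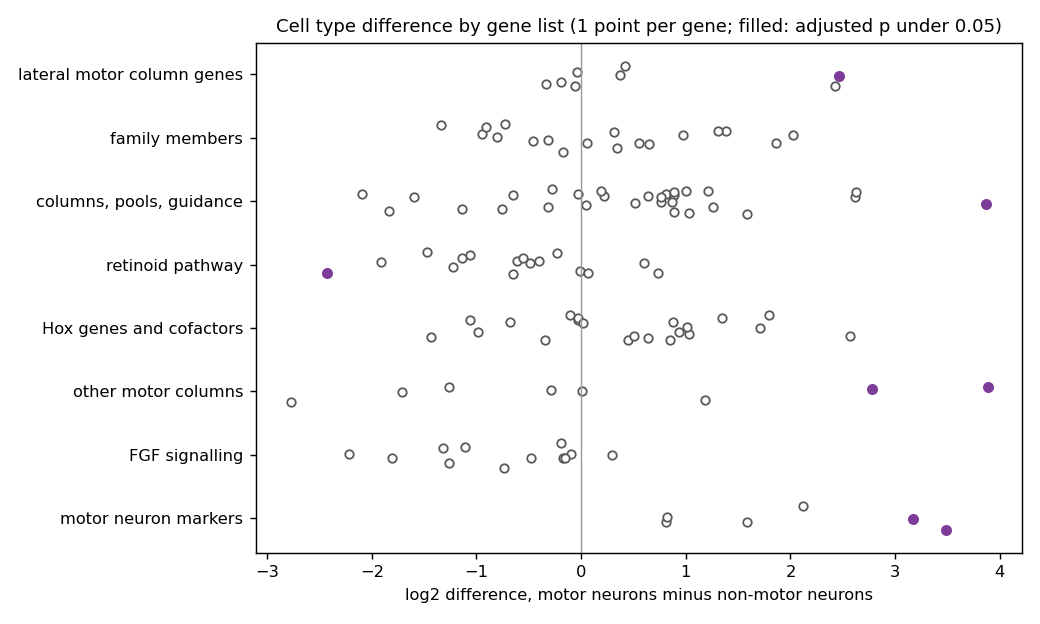
Log2 difference of motor neurons minus non-motor neurons (horizontal axis) for the brightest tested probe of each gene, 1 point per gene, by gene list, filled where adjusted p was under 0.05. Among the lateral motor column genes Cpne4 and Pou3f1 stand apart at 2.47 and 2.43, and the filled points of other motor columns are Lhx3 at 2.78 and Lhx4 at 3.88.

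The genes whose brightest probe varied most like each member over the 6 arrays were looked up among 10133 genes above background on all arrays, as a description without a test. Pou3f1 was most like Cpne6, its r of 0.998 exceeding that of Gdap1 at 0.995. Cpne4 was most like Ccdc181 (r = 0.992) and Ubqln2 (r = 0.989). Foxp1 was most like Odf2 and Neurl1a (both r = 0.991), Etv4 like Terf2 (r = 0.997) and Msx2 (r = 0.991), and Etv5 like Uaca (r = 0.992) and Stk35 (r = 0.989). Nr2f2 was most like Lrrc8d (r = 0.995) and Mapk6 (r = 0.994), and Aldh1a2 like Septin4 (r = 0.976) and Pvr (r = 0.969). Between 87 and 379 genes had an r above 0.9 with a given member, as 6 shared arrays give few independent points.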

How the data were processed

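Amplified Cy3 RNA of each sorted fraction was read on its own array of 1 Agilent mouse slide. The scanner software was Feature Extraction, version 10.5.1.1 per the file headers, whereas 9.1 is the version in the submitters' processing notes. The deposited scanner files give processed signal as an intensity, and the authors' deposited value table gives log2 signal minus each array's 75th percentile, within 0.01 of the values used here. Those were log2 processed signals averaged over a probe's unflagged spots, minus the 75th percentile. Median signal and background intensity, as deposited, served for the normexp alternative in place of mean signal. Probes were named by RefSeq accession (GRCm38.p6, while the headers name mm9): 26300 matched a gene and 29381 did not. Tests used limma 3.58.1 in R 4.3.3, per probe, with Benjamini-Hochberg adjustment over 33263 probes, a model of 4 group means for labels and an additive model for fractions. A fold with "at least" sets the higher group's mean against the lowest signal well above background. The number of arrays limits the precision. Steps were tested on simulated data. The members, the gene lists and the rule for named genes (every member probe; up to 3 called genes per list and comparison, or the 2 largest if none; the 2 most alike genes) were chosen with earlier results of these data known. One gene that the rule takes is not reported here.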

Additional observations from a re-analysis of the deposited data

How the results depend on the processing

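Directions held for every called member probe under every alternative run, while many calls did not. The 8258 calls between labels became 1970 (0 of the members' 3) with quantile normalization, 0 (0) with no filter on dim probes (11502 at an unadjusted p under 0.05), 0 (0) in limma's additive model (11192 unadjusted) and 3434 (1 member) with 1 probe per gene. Leaving out 1 array gave 2106 to 11993 calls, with 0 to 4 members. The 284 calls between fractions became 529 with array medians subtracted, 0 (0 members) with quantile normalization (5625 unadjusted) or no dim-probe filter (17366 unadjusted), 836 (2 members) with probes above background on all arrays, 670 (2) with an intensity trend, and 935 (2) with 4 group means. With 1 probe per gene there were 342 of 14917 (2 members). Within the knockout label there were 0 (0 members; 3800 unadjusted), within the WT label 1994 (0), and leaving out 1 array gave 0 to 1802 (0 to 2), where leaving out a non-motor-neuron array was chosen after seeing the data. The interaction had 130 calls with medians subtracted, 1 with probes above background on all arrays, and 0 to 76 with an array left out. Probe pairs had 180 calls (1 member, Runx1) with an intensity trend, and 0 to 1992 (0 to 4 members) with an array left out. The replicate block, for numbers that do not pair the arrays (deviations of same-numbered motor neuron arrays correlated at -0.0964), gave 9206 calls between labels, 1051 between fractions and 92 in the interaction, and kept the members' counts. The cause of these shifts was not tested. Reversals touched only differences that were not called. Etv5 between labels was -0.40 without WT-labelled motor neuron replicate 2 (up to 0.87 without another array). Between fractions, with the opposite end of the range over left-out arrays in brackets, Etv5 was 0.032 with quantile normalization, 0.020 with normexp, 0.23 [-0.32] without WT-labelled replicate 2 and 0.27 with the block; Aldh1a2 was 0.067 [-0.46] without that replicate and 0.27 with the block. Foxp1 A_55_P2088825 was 0.0889 without knockout-labelled replicate 1 and 0.48 [-0.60] within the WT label or without the knockout-labelled non-motor-neuron array, where Foxp1 A_55_P2105452 was 0.25 [-0.60] and Runx1 A_55_P2183438 was 0.12 [-0.79]. Foxp1 A_55_P2105452 was also 0.12 without WT-labelled replicate 1. Etv4 A_55_P2078780 was -0.16 [0.998] within the knockout label or without the WT-labelled non-motor-neuron array. In the interaction, Aldh1a2 was 0.30 and Cpne4 0.099 with medians subtracted, Etv5 was -0.0360 with quantile normalization and -0.0532 with normexp, and Cpne4 was 0.079 with normexp. There, Aldh1a2 was 0.23 without knockout-labelled replicate 2 and 0.54 [-0.70] without WT-labelled replicate 1, and Etv5 was -0.63 [0.64] and Nr2f2 -0.037 [0.72] without WT-labelled replicate 2. The distance of Foxp1 probes A_55_P2088825 and A_55_P2105452 was -0.18 between labels with normexp and -0.33 [0.53] between fractions without WT-labelled replicate 1. Signal over background limits the dimmer Etv4, Foxp1, Runx1 and Cpne4 probes.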
